A study of Mus musculus with 27 samples.

Results

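Ovariectomy (OVX) removes the ovaries, the main source of estradiol and progesterone in a female mouse. This section describes what the hippocampal messenger RNA of ICR mice, an outbred strain, looked like after ovariectomy and saline, set against a sham operation and saline. The members were taken from the labels: 4 OVX saline libraries and 3 sham saline libraries of gene expression, 7 of the 27 samples in the series. The labels give no age, dose or time after surgery, and nothing states that the libraries of a group came from separate mice, so each p-value measures only the spread between these samples. A further 4 OVX and 4 sham libraries came from mice given xanthohumol (Xmo), a prenylated flavonoid of hops, in place of saline. They entered the same model, and their own surgery contrast is set beside the saline values where it adds something.

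Estradiol acts on hippocampal cells through the nuclear receptors ERα and ERβ and the membrane receptor GPER1, and in rodents it is known for raising dendritic spine density in CA1 and for inducing the progesterone receptor. It also acts on mitochondria, cerebral blood vessels and microglia. Loss of ovarian hormones is therefore usually read out in synaptic, mitochondrial, vascular and immune genes as well as in hormone targets. The gene lists used here cover those themes among others. They were chosen with earlier results of these data known, so the shares of list members that passed are descriptive only.

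Levels below are in CPM, counts scaled to a common library total after TMM normalization (trimmed mean of M-values), so each is a share of its library. Counts summed to between 22592132 and 39140593 per library in OVX saline and between 28682463 and 29552049 in sham saline. Protein genes of the mitochondrial genome held 11.9% to 16.5% of the counts in OVX saline and 19.0% to 34.1% in sham saline, and the TMM factors ran from 1.02 to 1.09 in OVX saline and from 0.726 to 0.969 in sham saline. With the mitochondrial genes removed before scaling, 1203 genes passed the saline comparison below, against 1246 with them. The 3 sham saline libraries stood apart from the other libraries. For 1009 of 19969 genes tested (5.05%) all 3 lay outside the range of the other 12 libraries, against 36 genes for OVX saline, 33 for OVX Xmo and 76 for sham Xmo. Markers of hippocampal neurons were present: the neuronal nuclear protein gene Rbfox3 was at 156, 163, 155 and 162 CPM in OVX saline, against 192, 154 and 248 CPM in sham saline, and the dentate granule cell transcription factor gene Prox1 was at 178, 191, 178 and 180.2 CPM in OVX saline, against 165, 203 and 170.5 CPM in sham saline. The groups overlapped for both genes.

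The comparison asked which transcripts ovariectomy changed under saline. Of 19969 genes tested with edgeR's quasi-likelihood test, 1246 had a Benjamini-Hochberg adjusted p under 0.05, which is 6.24% of the genes and is called passing below. In OVX saline 728 were higher (3.65% of the genes) and 518 were lower (2.59%). Most changes were small, with a median log2 fold change of 0.53 among the genes that rose and −0.70 among those that fell, and 62 genes rose and 150 fell by more than 2-fold. The 4 OVX saline values and the 3 sham saline values did not overlap for 1224 of the 1246 genes, against 4897 of all genes tested (24.5%). Leaving out 1 library lowered the number past the test in every case. With OVX saline 1, 2, 3 or 4 removed it was 475, 258, 433 and 269, and with sham saline 1, 2 or 3 removed it was 978, 186 and 80. A core of 47 genes (0.235%), 23 higher and 24 lower, passed in all 7 of these fits and had no overlap, and 337 of the 1246 passed in none of the 7.

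The surgery contrast in mice given Xmo shares no library with the saline contrast. There 2 genes passed (0.01%), AC166936.1 and Gm22133, predicted genes wholly inside other genes and named after their values were seen, and 2027 had an unadjusted p under 0.05, against 4927 under saline. Of the 728 genes that rose under saline 55.9% lay higher in OVX Xmo than in sham Xmo, against 47.2% of all genes, and of the 518 that fell 54.1% lay lower, against 52.8% of all genes. Their median log2 fold changes under Xmo were 0.02 and −0.02. The difference between the surgery effects passed for 83 genes (0.416%), of which 74 were among the 1246. The sham saline libraries lay outside all 12 other libraries for 636 of the 1246 genes (51.0%) and for 46 of the 47 core genes.

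**Figure D1:**
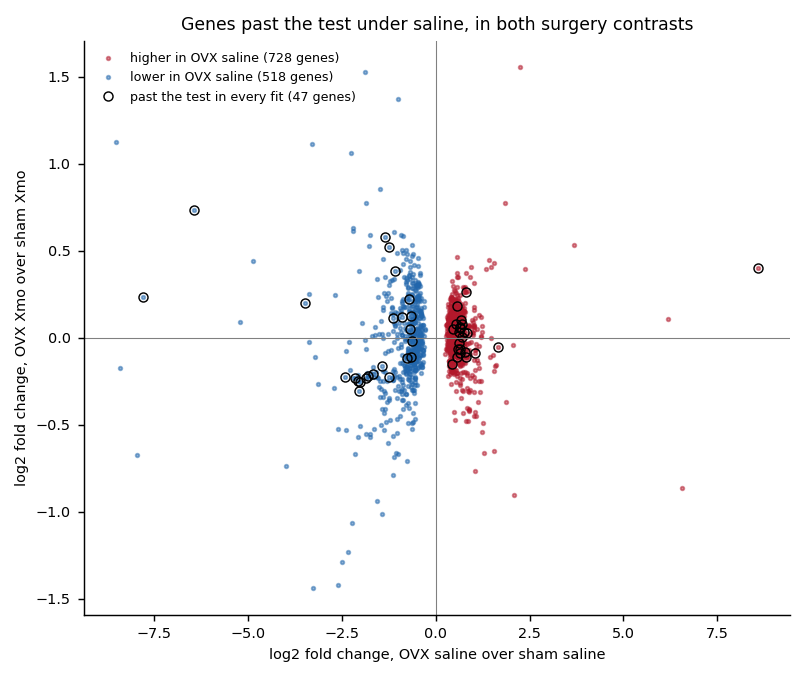
Each dot is 1 of the 1246 genes past the test under saline, with its log2 fold change in OVX saline over sham saline on the x axis and in OVX Xmo over sham Xmo on the y axis; red genes were higher and blue genes lower in OVX saline, and the rings mark the 47 core genes. The dots spread to both sides of 0 on the x axis and centre near 0 on the y axis, with medians of 0.02 and −0.02.

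Transcript length above 500 bases moved with the direction of change. The median log2 fold change was 0.20 for 1768 genes with transcripts of 500 to 1000 bases, as the deposited counts and length-normalised FPKM values imply them, 0.11 from 1000 to 2000 bases, −0.09 from 4000 to 6000 bases and −0.14 for 1859 genes over 6000 bases. Under Xmo the corresponding medians were −0.06, −0.03, 0.01 and 0.01. In OVX saline 5.60% of the genes of 500 to 1000 bases rose and 1.47% fell, whereas 1.08% of those over 6000 bases rose and 4.52% fell. The shortest class, 532 genes of up to 500 bases, went the other way in its calls. Its median was 0.19, yet 1.32% rose and 3.95% fell. Subunits of the respiratory chain, ribosome and proteasome have short transcripts, while synaptic and chromatin genes have long ones, and the part of length in the changes below was not tested.

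**Figure D2:**
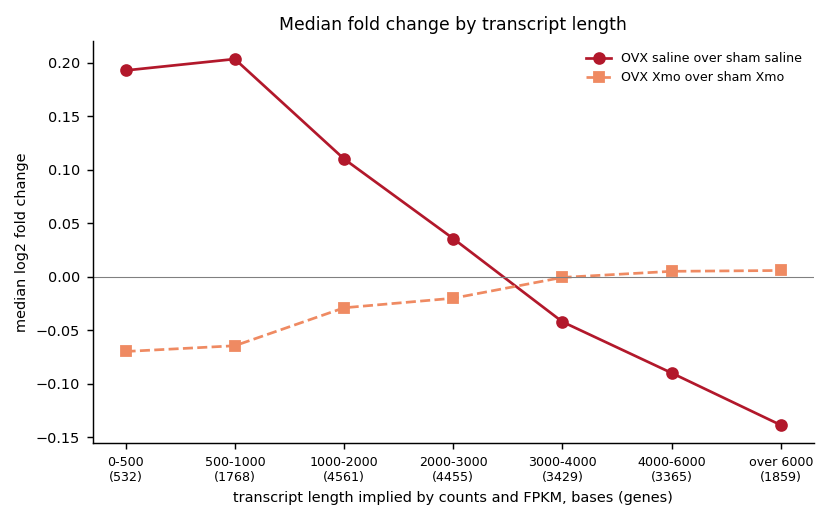
The y axis is the median log2 fold change of all genes tested in 7 classes of transcript length (x axis, bases, with the number of genes), for OVX saline over sham saline (circles) and OVX Xmo over sham Xmo (squares). Under saline the medians run from 0.20 in short transcripts to −0.14 in the longest class, and under Xmo they stay between −0.07 and 0.01.

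Psmb5 (ENSMUSG00000022193, chromosome 14:54614120-54617995, GRCm38.p6) encodes the subunit with the chymotrypsin-like activity of the proteasome and was at 62.6, 54.7, 56.3 and 60.5 CPM in the OVX saline libraries, against 37.8, 34.1 and 35.8 CPM in the sham saline libraries. Every OVX saline library lay above every sham saline library, and the log2 fold change was 0.70 (SE 0.10, edgeR adjusted p = 0.00876). Psmb4, a non-catalytic subunit of the same ring, was at 78.5, 77.7, 75.9 and 82.5 CPM in OVX saline, against 55.5, 43.5 and 47.5 CPM in sham saline, again without overlap, and rose by 0.69 (SE 0.11, edgeR adjusted p = 0.0111). Otub2, a deubiquitinating enzyme (chromosome 12:103388682-103406350), was at 40.1, 47.1, 40.3 and 43.4 CPM in OVX saline, against 27.5, 24.2 and 30.7 CPM in sham saline. The lowest OVX saline library was above the highest sham saline library, a rise of 0.64 (SE 0.10, edgeR adjusted p = 0.00945). In the opposite direction, the ubiquitin-conjugating (E2) enzyme gene Ube2r2 (chromosome 4:41135743-41193380) was at 41.5, 40.4, 46.6 and 44.3 CPM in the OVX saline libraries, against 63.95, 68.3 and 77.7 CPM in the sham saline libraries. Ube2d1, another E2 gene (chromosome 10:71254980-71285262), was at 47.9, 45.8, 49.8 and 39.8 CPM in OVX saline, against 69.8, 87.8 and 76.6 CPM in sham saline. Both were lower in all 4 OVX saline libraries than in any sham saline library, with log2 fold changes of −0.70 (SE 0.09, edgeR adjusted p = 0.00625) for Ube2r2 and −0.77 (SE 0.11, edgeR adjusted p = 0.00876) for Ube2d1.

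Beyond these genes, 6 of 17 subunits of the proteasome core particle rose (35.3%) and 0 fell, with a list median of 0.30. Psma5 of the outer ring rose by 0.46 (edgeR adjusted p = 0.0166), and Psmb1, Psmb6 and Psmb7 rose by 0.35, 0.42 and 0.34. Of 30 regulatory particle and activator genes 4 rose and 1 fell: Psmc2, an ATPase of the base, rose by 0.46, Psmd13 by 0.40, Psmc5 by 0.31 and the ubiquitin receptor Psmd4 by 0.42, whereas Psme3, the nuclear PA28γ activator, fell by 0.32 (edgeR adjusted p = 0.0265). Folding factors followed in part, since Cct5, Cct7 and Cct3 of the cytosolic TRiC chaperonin rose by 0.48, 0.45 and 0.41, and Hspa4l, of the HSP110 family, fell by 0.55 among 48 chaperone genes. Without sham saline 3, 2 core particle genes, 0 regulatory genes and 0 chaperone genes passed. The medians of the 3 lists under Xmo were −0.04, 0.05 and 0.07.

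**Figure D3:**
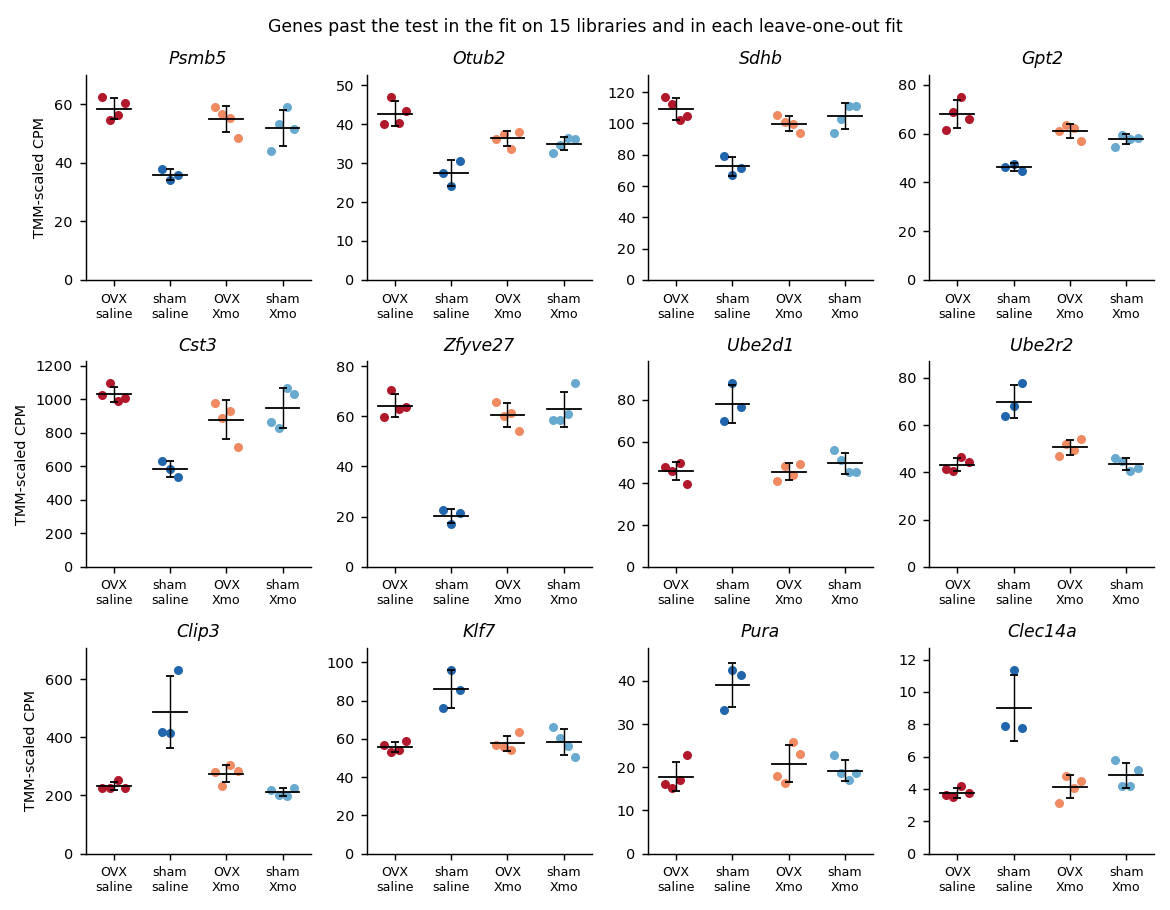
TMM-scaled CPM (y axis, from 0) of 12 core genes in each of the 15 libraries, grouped as OVX saline, sham saline, OVX Xmo and sham Xmo on the x axis; dots are libraries, and lines with bars are the mean ± SD (n = 4, 3, 4 and 4). For every gene shown the 3 sham saline dots lie outside the 4 OVX saline dots, as for Psmb5 between 34.1 and 37.8 CPM in sham saline, below all OVX saline libraries.

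The largest log2 fold change among the core genes that rose without overlapping another gene was that of Zfyve27 (ENSMUSG00000018820, chromosome 19:42163951-42194590), which encodes protrudin, an endoplasmic reticulum protein that promotes neurite outgrowth. It was at 59.8, 70.5, 62.8 and 63.8 CPM in the OVX saline libraries, against 22.5, 17.1 and 21.3 CPM in the sham saline libraries. The lowest OVX saline library was far above the highest sham saline library (log2 fold change 1.66, SE 0.12, edgeR adjusted p = 4.90e-06). Gdf1, a growth factor gene that lies wholly inside the span of Cers1, had 1503, 1216, 1473 and 1140 counts in the OVX saline libraries, against 3, 2 and 3 counts in the sham saline libraries, a difference that is reported as uncertain because the counting could divide reads between the overlapping genes. Other organelle genes moved less. Rab24, a Rab protein linked to autophagy (chromosome 13:55319223-55321980), was at 28.9, 28.3, 27.01 and 31.6 CPM in OVX saline, against 19.8, 16.8 and 19.1 CPM in sham saline, and Tbc1d14, which regulates autophagosome formation, was at 85.3, 89.5, 96.9 and 79.1 CPM in OVX saline, against 63.3, 58.5 and 56.9 CPM in sham saline. The groups did not overlap for either gene, and the rises were 0.64 (SE 0.11, edgeR adjusted p = 0.013) for Rab24 and 0.56 (SE 0.09, edgeR adjusted p = 0.00945) for Tbc1d14. Bloc1s2, a subunit of the complexes that position lysosomes, rose by 0.70, and Cystm1, a small membrane protein gene, rose by 0.77, each with edgeR adjusted p = 0.00945. Among 46 lysosome and V-ATPase genes 2 rose (4.35%), the proton pump subunits Atp6v1f (0.52) and Atp6v0b (0.61), and 0 fell, while 1 of 34 autophagy genes rose, the conjugation factor Atg16l1 (0.35). None of these list members passed without sham saline 3.

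Core genes that fell included those of trafficking and RNA binding. Clip3, which encodes a microtubule and Golgi linker protein (ENSMUSG00000013921, chromosome 7:30291728-30308367), was at 224, 226, 254 and 225 CPM in the OVX saline libraries, against 418, 414 and 630.2 CPM in the sham saline libraries. All OVX saline values lay below all sham saline values, with sham saline 3 the highest, and the gene fell by 1.07 (SE 0.13; edgeR adjusted p = 0.00625). Under Xmo Clip3 had a log2 fold change of 0.38 (SE 0.13), and the difference between the surgery effects was 1.45 (SE 0.18, edgeR adjusted p = 0.00705). Pura, whose protein binds single-stranded nucleic acids and travels with dendritic RNA granules, was at 16.2, 15.2, 17.1 and 22.8 CPM in OVX saline, against 33.3, 42.5 and 41.4 CPM in sham saline, without overlap (log2 fold change −1.13, SE 0.17, edgeR adjusted p = 0.00945). Klf7, a Krüppel-like transcription factor gene of neurons, was at 56.7, 52.9, 54.3 and 58.8 CPM in OVX saline, against 76.2, 95.8 and 85.7 CPM in sham saline. Its groups did not overlap, and it fell by 0.63 (edgeR adjusted p = 0.012). Ylpm1, a nuclear protein gene, and Nsrp1, a splicing regulator gene of nuclear speckles, fell by 0.67 and 0.66. Further core genes that rose encode enzymes and a secreted inhibitor. Cst3, the cysteine protease inhibitor cystatin C (chromosome 2:148871722-148875692), was at 1027, 1094, 989.7 and 1008 CPM in OVX saline, against 631, 583 and 535 CPM in sham saline, and Gpt2, the mitochondrial alanine aminotransferase (chromosome 8:85492576-85527560), was at 61.5, 69.1, 75.2 and 65.8 CPM in OVX saline, against 46.3, 47.7 and 44.6 CPM in sham saline. The OVX saline libraries were all higher for both, by 0.82 (SE 0.12, edgeR adjusted p = 0.00876) for Cst3 and 0.55 (SE 0.08, edgeR adjusted p = 0.00876) for Gpt2.

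Some nuclear genes of the respiratory chain rose, whereas most protein genes of the mitochondrial genome fell. Of 12 nuclear subunits of complex IV 8 rose (66.7%), of 14 genes of complexes II and III and cytochrome c 5 rose and 1 fell, of 36 complex I subunits 10 rose (27.8%), and of 15 ATP synthase subunits 3 rose (20%). The list medians were 0.41, 0.30, 0.27 and 0.29 under saline and between −0.04 and −0.01 under Xmo. Sdhb, the iron-sulfur subunit of succinate dehydrogenase, was at 117, 112, 102 and 105 CPM in the OVX saline libraries, against 79.1, 67.1 and 71.8 CPM in the sham saline libraries. No OVX saline library came below 100 CPM and no sham saline library came above 80 CPM, a rise of 0.59 (SE 0.09, edgeR adjusted p = 0.00945). Cox5a of complex IV, whose span overlaps Gm26631 by 10.2%, was at 57.2, 56.02, 63.2 and 59.9 CPM in OVX saline, against 33.8, 36.3 and 29.6 CPM in sham saline (log2 fold change 0.83, SE 0.13, edgeR adjusted p = 0.00945), and Cox8a was at 333, 316, 314 and 362 CPM in OVX saline, against 237, 174 and 185 CPM in sham saline (log2 fold change 0.74, SE 0.14, edgeR adjusted p = 0.0165). In both the gap between the groups was wider than the spread within either. Ndufb6 and Ndufa9, accessory subunits of complex I, rose by 0.61 and 0.45, and Ndufs3, a core subunit, was at 56.9, 50.7, 57.5 and 56.4 CPM in OVX saline, against 44.9, 40.2 and 39.2 CPM in sham saline (log2 fold change 0.42, SE 0.09, edgeR adjusted p = 0.0218). Atp5e of the ATP synthase stalk was at 40.4, 35.7, 35.8 and 32.98 CPM in OVX saline, against 21.1, 21.04 and 18.3 CPM in sham saline, with all OVX saline libraries above all sham saline libraries (log2 fold change 0.85, SE 0.14, edgeR adjusted p = 0.012). The exception was Uqcrb, a small complex III subunit whose values were 79.8, 66.1, 63.8 and 53.1 CPM in OVX saline, against 80.9, 119.6 and 95.97 CPM in sham saline, a fall of 0.59 (edgeR adjusted p = 0.0365).

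The calls for these subunits rested on few libraries. Without sham saline 3, 1 complex IV, 1 complex II and III, 0 complex I and 0 ATP synthase genes passed, and without sham saline 2 the numbers were 1, 1, 1 and 1. Without OVX saline 2 they were 2, 3, 2 and 1, and without OVX saline 4 they were 4, 2, 2 and 1. The medians of the complex I and complex IV lists stayed positive in all 7 fits without 1 library. Around the chain, 4 of 24 protein import genes rose, among them Timm8b (0.59) and Timm50 (0.53) of the inner membrane translocases. Of 76 mitochondrial ribosomal proteins 5 rose (6.58%) and 1 fell. Among them Mrpl28 of the large subunit was in the core, at 22.7, 24.7, 23.3 and 23.4 CPM in OVX saline, against 16.4, 13.6 and 15.6 CPM in sham saline (log2 fold change 0.63, SE 0.10, edgeR adjusted p = 0.00945). Of 20 glycolysis genes 3 rose, Pgk1 (0.44), Eno1 (0.60) and the lactate dehydrogenase Ldhb (0.43). The glycolysis median was 0.30 under saline and 0.19 under Xmo, and 0 of its genes passed without sham saline 3. The tricarboxylic acid cycle median was 0.15 under saline and 0.11 under Xmo.

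Transcripts of the mitochondrial genome fell for 10 of 13 protein genes. mt-Nd6, the complex I subunit encoded on the light strand, was at 2699, 2059, 1810.1 and 1298 CPM in OVX saline, against 5549.6, 16581 and 9458 CPM in sham saline, and the methionine transfer RNA mt-Tm was at 50.7, 45.3, 40.6 and 41.2 CPM in OVX saline, against 81.0, 315 and 153 CPM in sham saline. The groups did not overlap for either, but the sham saline libraries spread widely, with sham saline 2 the highest, and the log2 fold changes were −2.42 (SE 0.42, edgeR adjusted p = 0.0132) for mt-Nd6 and −2.04 (SE 0.30, edgeR adjusted p = 0.00876) for mt-Tm. Without sham saline 2, 5 of 13 passed. mt-Nd6 is read on the strand opposite to mt-Nd5 and overlaps its end, and no source at hand states whether reads were assigned by strand.

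Nuclear genes of the respiratory chain are known targets of ETS-family factors such as GABP and of NRF1. Promoters are therefore shown as examples for Ndufs3 and Cox6a1 of the chain and for Rab24 outside it, all genes that rose. The promoter of Pgr, an established estrogen receptor target, is shown too. The motif CCGGAAG of ETS factors and the motif of NRF1 (GCGCA and GCGC with 1 base between) are in capitals on either strand. Each window shown of a gene that rose holds a match, unlike most promoters of such genes, as the shares below show. The 120 bases before the RefSeq transcription start (GRCm38.p6) are given 5′ to 3′ on the strand of the gene, with Ndufs3 at chr2:90904722-90904841 (minus strand), Cox6a1 at chr5:115348959-115349078 (minus strand), Rab24 at chr13:55321981-55322100 (minus strand) and Pgr at chr9:8899713-8899832 (plus strand).
Ndufs3: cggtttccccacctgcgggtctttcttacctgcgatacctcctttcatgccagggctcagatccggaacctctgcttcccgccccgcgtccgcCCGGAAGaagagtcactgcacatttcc
Cox6a1: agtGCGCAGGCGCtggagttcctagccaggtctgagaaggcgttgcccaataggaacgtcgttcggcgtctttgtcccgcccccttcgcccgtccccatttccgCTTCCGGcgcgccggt
Rab24: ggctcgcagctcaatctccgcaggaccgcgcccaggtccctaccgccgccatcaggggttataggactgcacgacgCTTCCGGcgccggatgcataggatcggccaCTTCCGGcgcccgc
Pgr: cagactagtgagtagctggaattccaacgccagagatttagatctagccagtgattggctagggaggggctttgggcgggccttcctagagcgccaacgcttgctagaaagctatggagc
The Ndufs3 window holds 1 ETS match 27 bases before the start, the Cox6a1 window an NRF1 match 117 bases and an ETS match 16 bases before it, and the Rab24 window 2 ETS matches 44 and 14 bases before it. In RefSeq windows of 300 bases, from 250 before to 50 after the start, CCGGAAG was in 23% of 660 promoters of genes that rose and 10.5% of 418 promoters of genes that fell, against 14.4% of 16311 promoters of genes tested and 8.86% of all 32851 promoters. The NRF1 motif was in 12.4%, 8.37%, 8.24% and 4.6% of the same sets. The full estrogen response element (GGTCA and TGACC with 3 bases between) was in 0 promoters of genes that rose and 0 of genes that fell, 0.0123% of those tested and 0.07% of all. Of 9 motifs searched, on both strands, that of YY1 was in 6.21% of promoters of genes that rose, against 3.67% of those tested. In the same order the shares were 20% and 19.2% for GATTGG (the CCAAT box), 5.45% and 7.78% for TATAAA, 21.7% and 19.1% for the GC box, 3.48% and 2.77% for the cAMP response element and 13.2% and 14% for the antioxidant response element. The motifs were chosen after values were seen, a match is not a bound site, and no test was made.

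Translation genes divided by class. Of 78 cytosolic ribosomal proteins 19 rose (24.4%) and 0 fell, with a median of 0.26, and −0.15 under Xmo. Rpl8 of the large subunit was at 174, 189, 178 and 182 CPM in the OVX saline libraries, against 124, 96.1 and 92.9 CPM in the sham saline libraries. OVX saline lay above sham saline throughout (log2 fold change 0.79, SE 0.12, edgeR adjusted p = 0.00945), and the difference between the surgery effects was −0.87 (SE 0.17, edgeR adjusted p = 0.041). Rps14 of the small subunit rose by 0.78, and Rpl10 and Rplp0 of the large subunit by 0.57 and 0.67. Ribosomal proteins have many processed pseudogenes, so their counts are less certain than those of single-copy genes. Initiation factors went both ways. Eif3i and Eif3k, small subunits of eIF3, rose by 0.49 and 0.44, and the elongation factor subunit Eef1g rose by 0.34. By contrast Eif3a, the largest eIF3 subunit, was at 194, 186, 184 and 192 CPM in OVX saline, against 225, 279 and 239 CPM in sham saline, and Pabpc1, the poly(A)-binding protein, was at 125, 120.4, 125 and 130.4 CPM in OVX saline, against 150.1, 174 and 192 CPM in sham saline. Neither overlapped between groups, with falls of 0.39 (edgeR adjusted p = 0.0279) and 0.46 (edgeR adjusted p = 0.0142). With sham saline 3 left out, 1 ribosomal protein gene and 0 of 43 translation factors passed, and without OVX saline 2 the numbers were 6 and 1.

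Several genes of RNA polymerase II and mediator passed. Of 40 polymerase and mediator genes 6 rose (15%) and 1 fell. The rises were in Polr2g, Polr2e and Polr2h of the polymerase (0.44, 0.46 and 0.41) and Med23, Med22 and Med27 of mediator (0.39, 0.46 and 0.46). Polr2a, the catalytic subunit and the one with the longest transcript, was at 84.5, 94.4, 84.4 and 99.3 CPM in the OVX saline libraries, against 127, 154 and 173 CPM in the sham saline libraries. Every OVX saline library was lower than every sham saline library (log2 fold change −0.74, SE 0.15, edgeR adjusted p = 0.0183). Among 58 chromatin modifiers 5 fell (8.62%) and 2 rose. The histone methyltransferase genes Kmt2a, Kmt2c and Kmt2e fell by 0.68, 0.35 and 0.52, Setd5 by 0.35 and the class IIa deacetylase gene Hdac9 by 0.57, whereas Hdac3 rose by 0.44 and Ehmt1 by 0.35. Kmt2a was at 172, 189.6, 209 and 192 CPM in OVX saline, against 285, 316 and 313 CPM in sham saline, without overlap. In the fits without sham saline 3 and without sham saline 2, 0 genes of these lists passed.

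**Figure D4:**
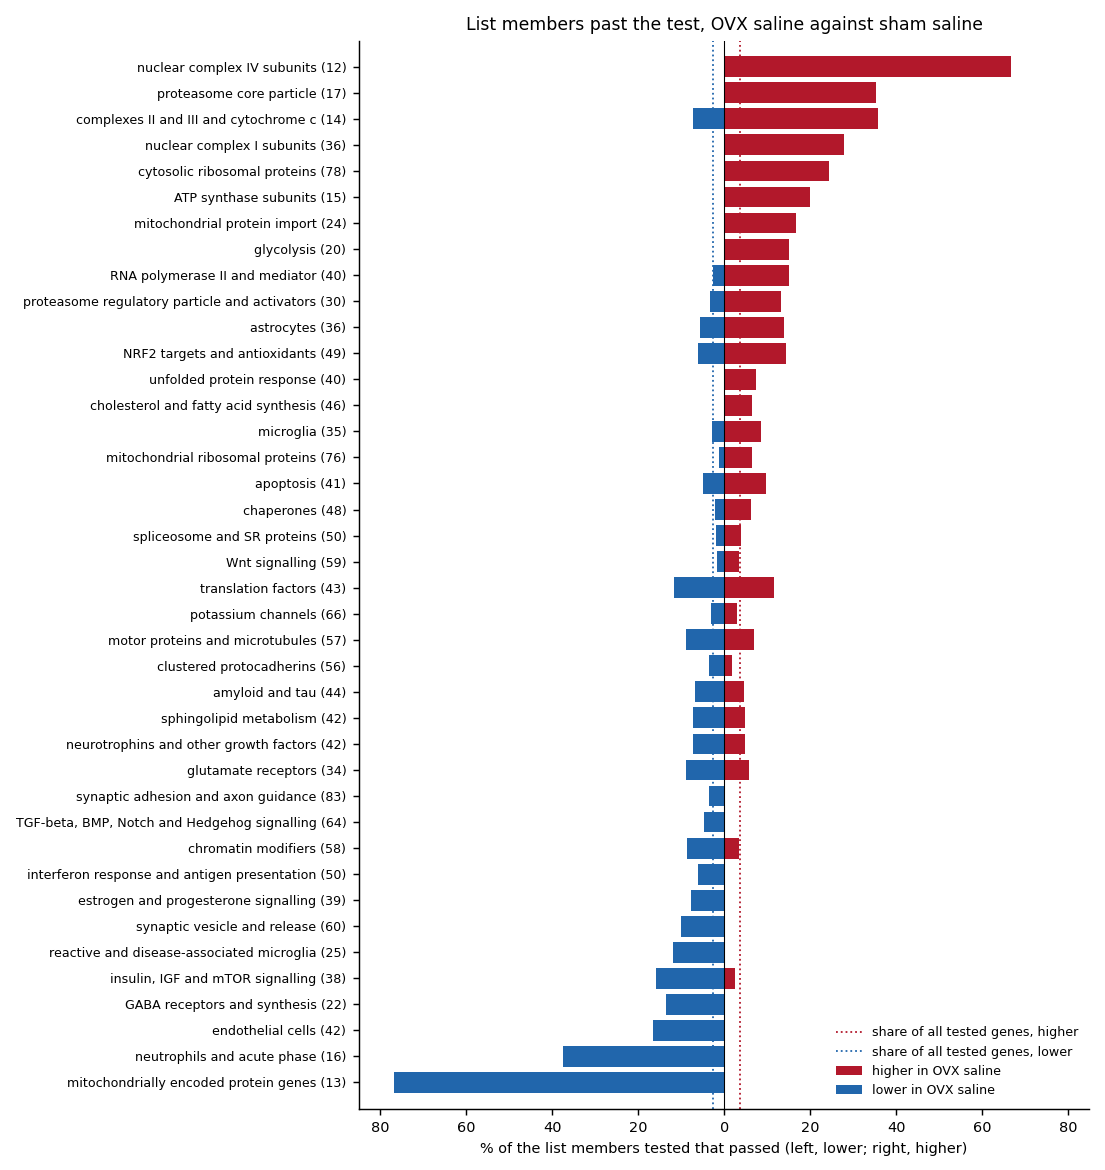
Bars give the share of tested list members (x axis, %) that rose (right, red) or fell (left, blue) in OVX saline, for every list with 3 or more members past the test (number tested in brackets); dotted lines mark the shares of all 19969 genes, 3.65% higher and 2.59% lower. Complex IV (66.7% higher) lies at the top, and the neutrophil (37.5% lower) and mitochondrially encoded lists (76.9% lower) lie at the bottom.

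Several genes of transmitter release fell. Of 60 genes of synaptic vesicles and release 6 fell (10%) and 0 rose. Syn1, the vesicle phosphoprotein synapsin I, was at 316, 302, 345 and 361 CPM in OVX saline, against 545, 447 and 810.4 CPM in sham saline, and Vamp2, the vesicle SNARE, was at 560.2, 554, 648 and 601 CPM in OVX saline, against 857, 819 and 1236 CPM in sham saline. No value overlapped and sham saline 3 was the highest, with falls of 0.86 (edgeR adjusted p = 0.0171) and 0.72 (edgeR adjusted p = 0.0138). Timp1 and Araf share part of the span of Syn1. Pclo, Synj1 and Rab3a, of the active zone, vesicle recycling and vesicle docking, fell by 0.49, 0.60 and 0.42. The list median was −0.09 under saline and 0.24 under Xmo. Of these 60 genes 1 passed without sham saline 3. The vesicular glutamate transporter gene Slc17a7, a marker of excitatory neurons, was also highest in sham saline 3, at 537, 522, 554 and 643 CPM in OVX saline, against 478, 330.4 and 1240 CPM in sham saline, and its part in these falls was not tested.

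Single receptor genes passed in several families. Of 34 glutamate receptor genes 3 fell and 2 rose. Cacng2, the AMPA receptor partner stargazin, was at 44.9, 54.9, 62.3 and 62.5 CPM in OVX saline, against 75.9, 91.3 and 111 CPM in sham saline, and Grin2b, the NMDA receptor subunit GluN2B, was at 747, 668, 737 and 772 CPM in OVX saline, against 912, 979.6 and 1144 CPM in sham saline. Both were lower in OVX saline without overlap, with log2 fold changes of −0.72 (SE 0.15, edgeR adjusted p = 0.0191) for Cacng2 and −0.47 (SE 0.11, edgeR adjusted p = 0.0291) for Grin2b. Grin2c, the GluN2C subunit, was at 75.4, 74.2, 89.5 and 80.6 CPM in OVX saline, against 39.2, 57.5 and 46.96 CPM in sham saline, a rise of 0.74 (SE 0.20, edgeR adjusted p = 0.0427), and Cnih2, another AMPA receptor partner, rose by 0.42. Of 22 genes of GABA receptors and synthesis 3 fell (13.6%) and 0 rose. Among them Gabrg3 and Gabrb1, subunits of the GABA-A receptor, fell by 0.54 and 0.59. Tenm2 and Adgrl3, which bind each other across synapses, fell by 0.61 and 0.31 among 83 adhesion and guidance genes. The numbers that passed without sham saline 3 were 0 glutamate, 0 GABA and 0 adhesion genes.

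Excitability and peptide genes were near the background. Of 66 potassium channel genes 2 rose, among them the Kv4 partner Kcnip2 (0.49), and 2 fell, the BK channel Kcnma1 (−0.53) and Kcna2 (−0.48). Of 32 sodium and calcium channel genes 1 rose, the ryanodine receptor Ryr1, at 76.8, 79.5, 72.7 and 74.6 CPM in OVX saline, against 44.4, 47.4 and 51.4 CPM in sham saline (log2 fold change 0.67, SE 0.15, edgeR adjusted p = 0.0238). Htr2c, the serotonin 5-HT2C receptor that choroid plexus also expresses, was at 9.62, 15.7, 11.9 and 26.6 CPM in OVX saline, against 55.6, 32.9 and 27.01 CPM in sham saline, with OVX saline 4 just below the lowest sham saline library (log2 fold change −1.28, SE 0.31, edgeR adjusted p = 0.0294). Adra2a, the α2A adrenergic receptor gene, fell by 0.62. Tacr3, the neurokinin B receptor, had 10, 6, 16 and 4 counts in the OVX saline libraries, against 89, 16 and 111 counts in the sham saline libraries. Its sham saline libraries spanned a wide range, and it fell by 3.28 (SE 0.63; edgeR adjusted p = 0.0165). Adcyap1r1, the PACAP receptor, rose by 0.41. None of 33 immediate early genes passed: Fos was at 2.18, 3.50, 5.73 and 9.23 CPM in OVX saline, against 4.37, 3.51 and 7.06 CPM in sham saline and Arc at 46.6, 64.1, 78.9 and 91.5 CPM in OVX saline, against 78.2, 50.7 and 114 CPM in sham saline, overlapping in both.

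Among hormone receptor genes the progesterone receptor fell. Of 39 genes of estrogen and progesterone signalling tested 3 fell (7.69%) and 0 rose. Pgr (ENSMUSG00000031870, chromosome 9:8899833-8968611), which estradiol induces in many tissues, was at 15.1, 12.7, 12.98 and 15.2 CPM in the OVX saline libraries, against 22.7, 21.2 and 24.4 CPM in the sham saline libraries. The highest OVX saline library was below the lowest sham saline library, and the log2 fold change was −0.70 (SE 0.15, edgeR adjusted p = 0.0202). Under Xmo it was 0.17 (SE 0.14), and Pgr passed in 3 of the 7 fits without 1 library, with edgeR adjusted p = 0.0722 without sham saline 3. Pgrmc2, a membrane-associated heme-binding partner of progesterone signalling, was at 36.04, 38.02, 44.7 and 41.2 CPM in OVX saline, against 51.9, 48.2 and 56.2 CPM in sham saline and fell by 0.38 (edgeR adjusted p = 0.0319). Esr1, encoding ERα, was at 2.33, 2.04, 1.40 and 1.38 CPM in OVX saline, against 1.99, 1.59 and 1.35 CPM in sham saline, with overlap and a log2 fold change of 0.12 (SE 0.33, edgeR adjusted p = 0.849). Gper1, at 2.15, 1.94, 2.77 and 2.32 CPM in OVX saline, against 1.99, 0.673 and 1.68 CPM in sham saline, had 0.65 (SE 0.33, edgeR adjusted p = 0.239), and Greb1, a classical estrogen-induced gene, had −0.63 (SE 0.54, edgeR adjusted p = 0.508). Esr2 and the aromatase gene Cyp19a1 had too few counts to be tested.

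Several genes of growth factor pathways fell. Of 38 genes of insulin, IGF and mTOR signalling 6 fell (15.8%) and 1 rose. Igf1r, the IGF-1 receptor that works together with estrogen receptors in brain, was at 61.1, 70.4, 66.8 and 65.5 CPM in the OVX saline libraries, against 79.9, 82.9 and 82.8 CPM in the sham saline libraries. The values did not overlap, and the fall was small (log2 fold change −0.31, SE 0.08, edgeR adjusted p = 0.0372). Gsk3a and Gsk3b, kinases that AKT inhibits, fell by 0.40 and 0.49, Deptor, an mTOR inhibitor gene, fell by 0.68, and Mlst8, an mTOR complex subunit gene, rose by 0.35. Igfbp7, an IGF-binding protein of vessels, was at 9.12, 8.66, 6.87 and 7.68 CPM in OVX saline, against 13.1, 37.3 and 13.7 CPM in sham saline, with sham saline 2 far above the others (log2 fold change −1.40, SE 0.31, edgeR adjusted p = 0.0224). With 1 library left out, at most 1 gene of this list passed in any fit. Without OVX saline 2, 3 or 4, 0 passed in each case, and without sham saline 3, 1 did. Among 42 growth factor genes Nrg2 rose (0.85) and Nrg3 (−0.44), Fgf12 (−0.71) and Pdgfa (−0.60) fell, while Bdnf, the brain-derived neurotrophic factor, was at 51.6, 43.3, 36.7 and 38.8 CPM in OVX saline, against 42.7, 40.2 and 49.01 CPM in sham saline, with overlap (log2 fold change −0.04, SE 0.14, edgeR adjusted p = 0.872). Of 64 genes of TGF-beta, bone morphogenetic protein (BMP), Notch and Hedgehog signalling 3 fell (4.69%, against 2.59% of all genes) and 0 rose. Without OVX saline 2, OVX saline 4 or sham saline 3, 0 of the 64 passed in each case. Bmp2 was at 1.15, 0.815, 1.46 and 1.14 CPM in OVX saline, against 2.51, 1.87 and 3.49 CPM in sham saline (log2 fold change −1.20, SE 0.26, edgeR adjusted p = 0.0206) and the receptor gene Bmpr2 at 191, 178, 175 and 160.2 CPM in OVX saline, against 276, 376 and 322 CPM in sham saline (log2 fold change −0.88, SE 0.20, edgeR adjusted p = 0.0265), both without overlap, and Tgfbr2 fell by 0.54. Of 59 Wnt pathway genes 2 rose (3.39%) and 1 fell (1.69%), no more than the 3.65% and 2.59% of all genes, with a list median of 0.01. Without OVX saline 2, sham saline 2 or sham saline 3, 0 of the 59 passed. Wnt2 was at 3.76, 4.38, 3.58 and 3.94 CPM in OVX saline, against 1.92, 1.54 and 2.13 CPM in sham saline (log2 fold change 1.06, SE 0.22, edgeR adjusted p = 0.0177), the receptor gene Fzd3 was at 7.64, 8.59, 7.03 and 6.71 CPM in OVX saline, against 15.6, 12.9 and 14.9 CPM in sham saline (log2 fold change −0.95, SE 0.23, edgeR adjusted p = 0.0321), and Wnt10b had 4, 13, 10 and 8 counts in the OVX saline libraries, against 0, 0 and 0 counts in the sham saline libraries, at least 2.40-fold higher against a floor of 3 counts per sham saline library.

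Antioxidant genes divided by family. Of 49 NRF2 targets and antioxidant genes 7 rose (14.3%) and 3 fell (6.12%). Taldo1, the transaldolase of the pentose phosphate pathway, was at 57.5, 61.6, 65.7 and 62.8 CPM in OVX saline, against 44.3, 34.5 and 38.5 CPM in sham saline, and Msrb2, the mitochondrial methionine sulfoxide reductase, was at 16.7, 16.4, 17.3 and 17.3 CPM in OVX saline, against 11.04, 9.75 and 11.8 CPM in sham saline. Both were in the core, with rises of 0.66 (SE 0.10, edgeR adjusted p = 0.00945) for Taldo1 and 0.64 (SE 0.11, edgeR adjusted p = 0.012) for Msrb2. Peroxiredoxins rose, Prdx6 by 0.53, Prdx5 by 0.54 and Prdx2 by 0.45, as did Gpx4, the lipid peroxide reductase, at 201, 197, 185 and 186 CPM in OVX saline, against 137, 133 and 122 CPM in sham saline (log2 fold change 0.56, SE 0.10, edgeR adjusted p = 0.016). Gclc, the rate-limiting enzyme of glutathione synthesis, was at 65.0, 60.9, 60.7 and 66.3 CPM in OVX saline, against 70.8, 84.9 and 80.8 CPM in sham saline. It was lower in every OVX saline library and fell by 0.32, Sod3, the extracellular superoxide dismutase, fell by 0.92, and the catalase gene fell too. The factor gene Nfe2l2 itself was at 18.3, 18.8, 19.6 and 20.6 CPM in OVX saline, against 20.8, 20.6 and 17.1 CPM in sham saline, with overlap (log2 fold change −0.01, SE 0.10, edgeR adjusted p = 0.954). Taldo1 and Msrb2 were the 2 genes of the list that passed without sham saline 3.

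Cell death and protein stress genes gave small counts. Of 41 apoptosis genes 4 rose and 2 fell. Casp2, an initiator caspase, was at 7.59, 10.9, 9.50 and 7.20 CPM in the OVX saline libraries, against 4.12, 2.98 and 3.20 CPM in the sham saline libraries. The OVX saline values were more than 1.5 times the highest sham saline value (log2 fold change 1.35, SE 0.24, edgeR adjusted p = 0.0138). Bax, the pore-forming BCL2 family member, was at 21.5, 20.2, 19.4 and 17.2 CPM in OVX saline, against 12.5, 10.4 and 13.8 CPM in sham saline, likewise without overlap (log2 fold change 0.68, SE 0.14, edgeR adjusted p = 0.0203), and Mcl1, which opposes it, fell by 0.45 (edgeR adjusted p = 0.0344). Diablo and Aifm1, proteins released from mitochondria, rose by 0.36 and 0.38. Removing sham saline 2 or 3 left 0 of these past the test. Among 40 genes of the unfolded protein response the disulfide isomerase genes Pdia6 (0.47) and Pdia4 (0.54) and Selenos (0.37) rose. The median of that list was 0.01, and 0 of its genes passed without OVX saline 1, 2 or 4 or sham saline 2 or 3. Of 44 genes of amyloid and tau biology 2 rose (4.55%) and 3 fell (6.82%), and 0 passed without sham saline 3. Cdk5, a tau kinase, was at 92.9, 86.2, 88.4 and 89.5 CPM in OVX saline, against 63.6, 67.2 and 66.7 CPM in sham saline (log2 fold change 0.44, SE 0.08, edgeR adjusted p = 0.0132), and Sncb, β-synuclein, was at 121, 121, 141 and 112 CPM in OVX saline, against 191, 163 and 269 CPM in sham saline (log2 fold change −0.75, SE 0.15, edgeR adjusted p = 0.0177), with no overlap in Cdk5 or Sncb. App, the amyloid precursor, was at 685, 685, 858 and 797 CPM in OVX saline, against 993, 739 and 1109 CPM in sham saline, and Mapt, encoding tau, at 382, 408, 429 and 407 CPM in OVX saline, against 428, 351 and 449.8 CPM in sham saline, with overlap in both. Sterol synthesis genes Tm7sf2, Ebp and Acat2 rose by 0.65, 0.54 and 0.42, 3 of 46 lipid synthesis genes, and 0 of them passed without sham saline 3.

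Cytoskeletal genes divided as well. Tuba4a, an α-tubulin gene, was at 164, 153, 161 and 185 CPM in OVX saline, against 86.6, 83.6 and 92.4 CPM in sham saline, without overlap (log2 fold change 0.92, SE 0.19, edgeR adjusted p = 0.0202), though Stk16 shares 24.5% of its span, and Stmn3, Tubb2b and the kinesin gene Kif1c rose by 0.41, 0.49 and 0.38. Map1b, a microtubule-associated protein of axons, was at 1127, 1092, 1273 and 1257 CPM in OVX saline, against 1534, 1502 and 1863 CPM in sham saline, lower throughout in OVX saline (log2 fold change −0.46, SE 0.11, edgeR adjusted p = 0.0288), and Nefm, Map6, Tubb4a and Dctn5 fell by 0.41, 0.41, 0.47 and 0.58. In all 4 of 57 motor and microtubule genes rose and 5 fell, and 0 passed without sham saline 3.

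Several vessel genes fell. Of 42 endothelial genes 7 fell (16.7%) and 0 rose, with a list median of −0.37 (0.02 under Xmo). Fewer cells of a type and less RNA per cell cannot be told apart in tissue RNA, here or for the other cell types. Clec14a, an endothelial lectin in the core (chromosome 12:58264720-58269290), was at 3.61, 3.50, 4.20 and 3.78 CPM in the OVX saline libraries, against 7.89, 11.3 and 7.76 CPM in the sham saline libraries. All OVX saline values lay below all sham saline values (log2 fold change −1.25, SE 0.18, edgeR adjusted p = 0.00876). Vwf, von Willebrand factor, was at 6.24, 6.62, 12.2 and 11.8 CPM in OVX saline, against 21.4, 41.5 and 22.1 CPM in sham saline, and Sox17, an arterial transcription factor gene, was at 3.66, 2.14, 2.73 and 1.95 CPM in OVX saline, against 5.52, 5.81 and 6.81 CPM in sham saline. No OVX saline value reached the sham saline range in either gene, with log2 fold changes of −1.62 (SE 0.29, edgeR adjusted p = 0.0142) for Vwf and −1.20 (SE 0.23, edgeR adjusted p = 0.0165) for Sox17. Flt1, the VEGF receptor 1, and Podxl, of the luminal surface, fell by 0.54 and 0.82. The defining markers Cldn5, Pecam1 and Cdh5 did not pass: Cldn5 was at 9.44, 9.24, 11.97 and 11.5 CPM in OVX saline, against 11.3, 12.2 and 11.4 CPM in sham saline, with overlap, and Pecam1 and Cdh5 had log2 fold changes of −0.44 (SE 0.15, edgeR adjusted p = 0.0943) and −0.55 (SE 0.19, edgeR adjusted p = 0.0903). The endothelial list amounted to 1552, 1596, 1779 and 1764 summed CPM in the OVX saline libraries, against 1997, 2225 and 2013 summed CPM in the sham saline libraries. Without OVX saline 1, 2 or 4 or sham saline 3, 2 endothelial genes passed in each case. Of 25 pericyte and smooth muscle genes 1 rose and 1 fell (4% each), near the 3.65% and 2.59% of all genes. Without sham saline 2 or sham saline 3, 0 of the 25 passed. The pericyte gene Rgs5 was at 126, 120.3, 125 and 129.6 CPM in OVX saline, against 159, 242 and 159 CPM in sham saline and fell by 0.58 (edgeR adjusted p = 0.0244), with sham saline 2 the highest, whereas Acta2 and Myh11 of smooth muscle overlapped between groups.

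Neutrophil granule genes were low or listed at 0 in OVX saline and had counts in all sham saline libraries. Of 33 genes listed 16 had enough counts to be tested, 17 were too low, and 6 of those tested fell. The filter on counts could be met by the 3 sham saline libraries alone. A gene that entered in this way, with 0 counts in OVX saline as for Retnlg below, could hardly do other than fall. The share, median and summed level of this list are therefore descriptive only. Lcn2, the granule protein lipocalin 2, which reactive astrocytes and endothelium also make, had 11, 0, 10 and 0 counts in the OVX saline libraries, against 133, 2052 and 205 counts in the sham saline libraries. S100a9, a calprotectin subunit of neutrophils, had 8, 0, 0 and 0 counts in the OVX saline libraries, against 59, 252 and 67 counts in the sham saline libraries. Sham saline 2 held most of the counts for both genes, and the fitted log2 fold changes were −7.79 (SE 1.13, edgeR adjusted p = 0.00876) for Lcn2 and −6.42 (SE 0.99, edgeR adjusted p = 0.00945) for S100a9. Retnlg, a resistin-like gene of neutrophils, had 0, 0, 0 and 0 counts in the OVX saline libraries, against 13, 70 and 17 counts in the sham saline libraries, at least 15.2-fold lower against a floor of 3 counts per OVX saline library, and at least 5.81-fold lower without sham saline 2. S100a8, the partner of S100a9, had 17, 10, 0 and 0 counts in the OVX saline libraries, against 32, 233 and 36 counts in the sham saline libraries and did not pass (edgeR adjusted p = 0.0604), and Ngp, a granule protein gene, had 6, 8, 4 and 0 counts in the OVX saline libraries, against 13, 275 and 63 counts in the sham saline libraries and passed (edgeR adjusted p = 0.0278). The list of neutrophil and acute phase genes amounted to 12.6, 14.5, 15.9 and 16.1 summed CPM in the OVX saline libraries, against 26.6, 174 and 33.3 summed CPM in the sham saline libraries. Lcn2 alone was at 98.6 CPM in sham saline 2. With Xmo the list ran from 16.4 to 19.4 summed CPM in OVX and from 13.9 to 21.8 in sham, and its median log2 fold change was 0.11. Without sham saline 2, 2 of the 16 passed, and the list median without 1 library ran from −4.22 to −2.57. Of 50 genes of interferon response and antigen presentation 3 fell and 0 rose, with list medians of −0.23 under saline and −0.28 under Xmo. B2m, the MHC class I light chain, was at 145, 147, 147 and 151 CPM in OVX saline, against 184, 317 and 198 CPM in sham saline (log2 fold change −0.66, SE 0.14, edgeR adjusted p = 0.0214), the lysozyme gene Lyz2 fell by 1.32, the leukocyte gene Ptprc by 1.03, and the endothelial gene Ly6c1 had a log2 fold change of −1.44, each with sham saline 2 the highest library.

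Some astrocyte and microglial genes passed. Of 36 astrocyte genes 5 rose (13.9%) and 2 fell (5.56%), against 3.65% and 2.59% of all genes. Mlc1, of the astrocyte end-feet, was at 126, 125, 136 and 112 CPM in OVX saline, against 102, 77.6 and 86.4 CPM in sham saline (log2 fold change 0.49, SE 0.11, edgeR adjusted p = 0.0224), Gpr37l1 was at 148, 154, 192 and 159 CPM in OVX saline, against 129, 107 and 105 CPM in sham saline (log2 fold change 0.52, SE 0.12, edgeR adjusted p = 0.0246), and Acsbg1 rose by 0.43. OVX saline lay higher in all libraries for these genes, while Sox9, an astrocyte transcription factor gene, and Atp1b2, a sodium pump subunit gene, fell by 0.57 and 0.53. Of the defining markers, Gfap was at 391, 449, 457 and 461 CPM in OVX saline, against 373, 376 and 267 CPM in sham saline, without overlap but short of the threshold (log2 fold change 0.38, SE 0.12, edgeR adjusted p = 0.0787), Aldh1l1 had 0.31 (SE 0.13, edgeR adjusted p = 0.141), and Aqp4 was at 193, 201, 218 and 229 CPM in OVX saline, against 221, 218 and 169 CPM in sham saline, with overlap. Of 35 microglial genes 3 rose (8.57%) and 1 fell (2.86%). Tmem119 was at 17.6, 21.1, 20.6 and 21.1 CPM in OVX saline, against 15.2, 10.9 and 12.6 CPM in sham saline (log2 fold change 0.64, SE 0.15, edgeR adjusted p = 0.0294), Csf1r, the receptor that microglia need to survive, rose by 0.33, Selplg by 0.61, and Ptprc fell. Of 25 genes of reactive and disease-associated microglia 3 fell, B2m, Lyz2 and Ccl6 (−1.27), and Trem2 and Apoe, which mark the disease-associated state, had 0.30 (SE 0.18, edgeR adjusted p = 0.34) and 0.13 (SE 0.12, edgeR adjusted p = 0.517). P2ry12 and Cx3cr1 overlapped between groups, at 26.4, 30.8, 28.05 and 43.2 CPM in OVX saline, against 27.5, 30.8 and 28.3 CPM in sham saline for P2ry12 and 39.7, 24.6, 25.2 and 42.4 CPM in OVX saline, against 6.25, 25.4 and 39.9 CPM in sham saline for Cx3cr1. Removing sham saline 3 left 0 astrocyte and 0 microglial genes past the test.

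None of 36 oligodendrocyte, 22 precursor and 25 interneuron genes passed in either direction. Mbp was at 575, 762, 767 and 668 CPM in OVX saline, against 652, 925 and 501 CPM in sham saline, and Gad1, the GABA-synthesizing enzyme, at 144, 119.95, 122 and 113 CPM in OVX saline, against 174, 128 and 212 CPM in sham saline, both with overlap. Mog was the nearest to the threshold (log2 fold change 0.47, SE 0.15, edgeR adjusted p = 0.0651), and the precursor markers Pdgfra and Cspg4 had 0.11 and 0.16. In pyramidal cells 1 of 30 genes passed, the cadherin Cdh24 (log2 fold change 0.73, SE 0.15, edgeR adjusted p = 0.0172), and the CA1 markers Wfs1 and Fibcd1 overlapped. In granule cells 1 of 20 rose, Il16 (0.48), and 1 fell, Marcks, a membrane-bound actin regulator, at 53.8, 58.9, 63.4 and 44.8 CPM in OVX saline, against 108, 98.9 and 141 CPM in sham saline (log2 fold change −1.07, SE 0.22, edgeR adjusted p = 0.0191), while Dsp and C1ql2 had 0.29 and 0.28 and did not pass.

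Markers of tissue bordering the hippocampus varied from library to library. The choroid plexus list had a median of −1.12 under saline and −1.80 under Xmo, and 1 of 28 genes passed, the iodide transporter gene Slc5a5 (log2 fold change −0.62, SE 0.18, edgeR adjusted p = 0.0496). Ttr, the transthyretin gene of choroid plexus, was at 109, 88.8, 56.03 and 417 CPM in the OVX saline libraries, against 1130.5, 403 and 163 CPM in the sham saline libraries, overlapping between groups (log2 fold change −1.76, SE 1.23, edgeR adjusted p = 0.4). Clic6, of the same epithelium, was at 2.58, 2.34, 2.34 and 3.90 CPM in OVX saline, against 19.9, 8.31 and 7.72 CPM in sham saline, without overlap but not past the test (log2 fold change −2.11, SE 0.79, edgeR adjusted p = 0.113). The choroid plexus list amounted to 436, 431, 387 and 903 summed CPM in the OVX saline libraries, against 2090, 848 and 525 summed CPM in the sham saline libraries. Folr1 and Kcnj13 overlapped. Ependymal genes Foxj1 and Ccdc153, meningeal genes Col1a1, Col1a2 and Lum, and red cell genes Hba-a1, Hbb-bs and Alas2 overlapped between groups too, and 1 of 38 ependymal (the cilia gene Ccdc39, −0.56), 0 of 36 meningeal and 0 of 13 red cell and platelet genes passed. Thalamic and habenular genes did not pass in any of 24 cases, with Tcf7l2 at 6.44, 3.50, 36.8 and 25.01 CPM in OVX saline, against 33.4, 61.7 and 13.01 CPM in sham saline, and Synpo2 and Gpr151 overlapping as well. Of 18 neocortical genes 1 fell, Deptor, while Rspo1, Scnn1a and Tbr1 overlapped. Of the lymphocyte markers Cd79a overlapped and Cd3e had too few counts to be tested.

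**Figure D5:**
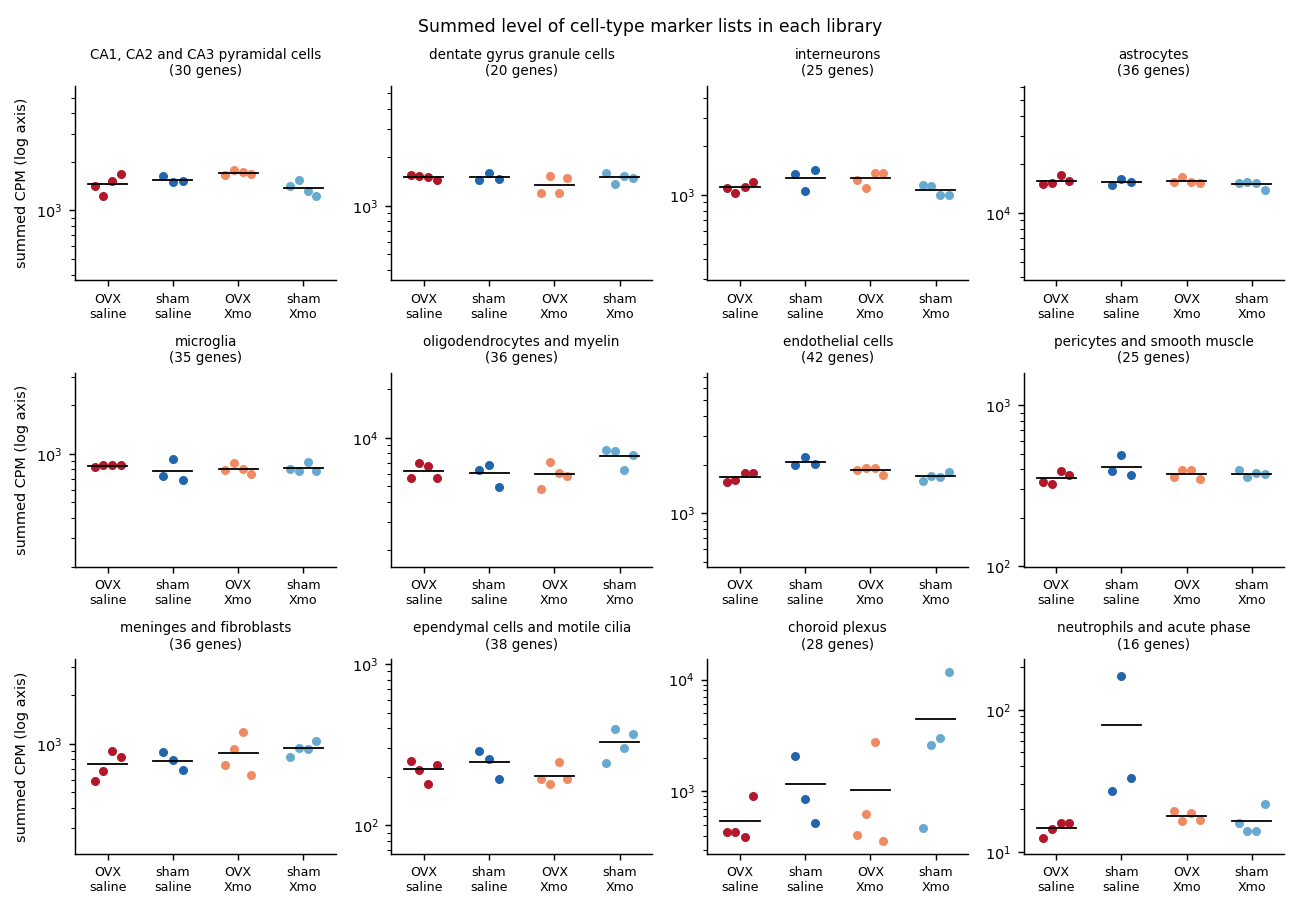
Each panel gives the summed CPM (y axis, log scale) of the tested genes of 1 cell-type list in each of the 15 libraries, in the order OVX saline, sham saline, OVX Xmo and sham Xmo; dots are libraries and lines are group means. The neutrophil list lies between 12.6 and 16.1 summed CPM in OVX saline, below 26.6 to 174 in sham saline, and the endothelial list lies between 1552 and 1779 in OVX saline, below 1997 to 2225 in sham saline, whereas the choroid plexus dots spread widely within groups.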

How the data were processed

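Gene expression of mouse hippocampus was measured in 15 libraries of 4 groups (OVX saline 4, sham saline 3, OVX Xmo 4, sham Xmo 4). Per the labels' protocols, Trizol RNA of flash-frozen hippocampi went into TruSeq libraries. Tools named in the submitters' processing notes, without order or role, are StringTie 1.3.3b, Bowtie2 2.3.2, Trimmomatic 0.36 and FastQC 0.11.2, on build GRCm38.p6. No source at hand states the use of strand in counting. The authors deposited 1 table with whole-number counts per gene beside FPKM and TPM. Counts alone were tested; FPKM served to infer transcript length, and the deposited TPM values were not used. The table holds 12 value columns of 4 further libraries that matched no label and were not used, and the small RNA samples were not analysed here.

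Features passing edgeR's filterByExpr (19969 of 51826) were fitted with edgeR 4.0.16 in R 4.3.3 (quasi-likelihood test, TMM factors, group means of all 15 libraries, 11 residual degrees of freedom, Benjamini-Hochberg threshold 0.05, prior count 2). A test on simulated counts preceded it. Standard errors are the absolute log2 fold change over the square root of F. Alternatives were DESeq2 1.42.0, RLE size factors, other filters, removal of mitochondrial genes, the 2 groups alone, a replicate block and leaving out each of the 7 libraries. Groups came from the labels. Floors of 3 counts cover counting error only.

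The members and the 69 gene lists were chosen with earlier results of these data known. Named genes are up to 20 core genes per direction without overlapping or predicted genes, up to 6 members past the test per list and direction, defining cell markers, the receptor genes Esr1, Esr2, Gper1 and Pgr, and up to 3 other members per list. Gdf1, Cers1 and core genes that overlap another gene were added where a test singled them out. Some genes past the test are not reported here.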

Additional observations from a re-analysis of the deposited data

Results flagged for a closer look

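The surgery effect under Xmo differed from that under saline for 37 of the genes reported, by the test of the difference in the same edgeR model (adjusted p under 0.05). Values are the log2 effect under Xmo minus that under saline, with both groups' OVX libraries over their own sham libraries. Most of these genes were named because they passed under saline, and the difference reuses the same saline libraries. A sign opposite to that of the saline effect was therefore largely set by this choice and is not separate support. Among genes that fell under saline, those of the synapse, the axon and growth factors were Syn1 (1.45), Vamp2 (1.07), Rab3a (0.78), Pclo (0.79), Sncb (1.23), Cacng2 (1.01), Tenm2 (1.09), Nrg3 (0.66), Map1b (0.75) and Nefm (0.78). Clip3 (1.45), Pura (1.25), Ylpm1 (0.72), Pabpc1 (0.62), Ube2r2 (0.92), Psme3 (0.50), Nr2f2 (1.93), Gatad1 (1.01), Ubap2l (0.77) and Cers1 (1.08) had positive differences as well. So did the receptor genes Adra2a (1.15) and Tacr3 (4.40) and the granule genes Lcn2 (8.02) and S100a9 (7.16), all with low counts in several libraries except Adra2a. Among genes that rose under saline the differences were negative for Rpl8 (−0.87), Rpl10 (−0.69), Rps14 (−0.98), Atp5e (−0.96), Sdhb (−0.65), Cst3 (−0.93), Taldo1 (−0.75), Tbc1d14 (−0.67), Wnt2 (−1.52), Zbed5 (−1.13), Hbs1l (−0.60), Zfyve27 (−1.72) and Gdf1 (−8.19). Nr2f2, Gatad1, Ubap2l, Zbed5, Hbs1l, Gdf1 and Cers1 share part or all of their span with another gene.

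A single OVX saline library lay far from the other 3 in 19 of 222 results, where chance gives about 1 in 20. The gap to the nearest library, as a share of the range over the 4 OVX saline libraries, follows each gene. OVX saline 4 was the high one for Clic6 (0.848), Folr1 (0.902), Ttr (0.854), Eif3i (0.906), Mlst8 (0.874), Pclo (0.868), Psmc5 (0.837), Rplp0 (0.918) and Tubb2b (0.883), and the low one for Atp6v0b (0.902). Clic6, Folr1 and Ttr are choroid plexus genes. OVX saline 3 was high for Aldh1l1 (0.849), Clip3 (0.926) and Selenos (0.937), OVX saline 1 was high for Gabrb1 (0.834), Polr2g (0.840) and S100a9 (1.00) and low for Gfap (0.831) and Tmem119 (0.836), and OVX saline 2 was low for Ndufs3 (0.844).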

How the results depend on the processing

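No named gene changed direction under any alternative, but the medians of 20 of the 69 lists changed sign with 1 library left out, among them red cells and platelets (−0.25 with all libraries, −0.66 to 0.40 without 1), thalamus and habenula (−0.78 to 0.02), glucocorticoid targets (−0.13 to 0.21) and estrogen and progesterone signalling (−0.07 to 0.06). The 1246 genes past the test under saline became 2322 with DESeq2 (1223 higher, 1099 lower), of which 1224 were shared, 568 with no filter on low counts, and between 80 (without sham saline 3) and 978 (without sham saline 1) with 1 library left out. RLE size factors gave 1175, a mean of at least 1 CPM 1433, removal of mitochondrial genes 1203 and the 2 groups alone 1202, of which 818 were shared. All 80 genes without sham saline 3 were among the 1246. For the surgery contrast under Xmo the 2 genes became 76 with DESeq2, 0 in the 2 groups alone and 0 to 3 with 1 library left out. For the difference between the surgery effects the 83 genes became 852 with DESeq2, 183 at a mean of at least 1 CPM, 20 with no filter and 6 to 302 with 1 library left out. The causes were not tested.

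Replicate numbers are shared between the groups in the labels. Same-numbered OVX saline and sham saline libraries had correlations of −0.06, −0.08 and −0.02 in their deviations from the group means. Those of other numbers ran from −0.13 to 0.11. No pairing by number was seen, but so few libraries cannot exclude it. With a replicate block 178 genes passed under saline, 175 of them among the 1246, 0 under Xmo and 11 for the difference. Of 255 genes past the test that the naming rule covers 39 passed in all 14 alternatives, 56 passed without sham saline 3 and 74 without sham saline 2. The count of list members moved without sham saline 3 for 58 of the 69 lists. Genes of a few counts per library, as in the neutrophil list, are limited by depth.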
